A study of Caenorhabditis elegans with 2 samples.

Results

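The regions described here are the strongest pooled peaks for NHR-11 at promoters of protein-coding genes in late embryos of the nematode Caenorhabditis elegans. Chromatin immunoprecipitation with sequencing (ChIP-seq) was carried out on whole late embryos of mixed sex from strain OP305 (unc-119(ed3) III; wgIs305), whose transgene joins NHR-11 to eGFP, a fluorescent protein, as the immunoprecipitated target. The samples formed a single group of 2 biological replicates, so every embryo carried the transgene and the unc-119 mutation, and the labels do not say how much NHR-11 the transgene adds to the worm's own. The members were chosen on measured values: of the 9931 peaks in the list that the authors called from both replicates together, the 2000 with the highest signal were kept, and a peak counted as a member where its summit lay between 1000 bp upstream and 200 bp downstream of the 5' end of a protein-coding gene. This gave 689 members (34.5% of the 2000; exact 95% interval 32.4 to 36.6%). The remaining 1311 strong peaks lay elsewhere, and a further 2173 lower-ranked peaks lay at coding promoters. The list of 9931 is labelled as peaks and background, so an entry in it is not by itself a called binding site. At the false discovery rate given there, 16 of the 689 members were at or below 0.05. Intervals cover counting error only, and with 1 group of samples chosen on the same signal no test was made.

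NHR-11 belongs to the nuclear hormone receptors, a family of transcription factors with a zinc-finger DNA-binding domain that is greatly expanded in nematodes; many of its worm members have no known ligand. Receptors of this family in animals commonly recognise short elements built on the letters AGGTCA. Genes of C. elegans are compact, neighbouring genes often start head to head from a shared stretch of DNA, and many messages are trimmed at their 5' end by trans-splicing to a spliced leader, so the annotated 5' end of a gene is often not the base where transcription begins. A summit upstream of a 5' end is therefore a place near a gene, and no expression was measured here.

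The sequences at some of the strongest members are shown first, because a minority of these members share a string that was found after the peak signals had been seen. Within 50 bp of the summit, the 7-letter string AGCGTGT, read on either strand, was present in 7 of the 43 members of the authors' thresholded list (16.3%, interval 6.81 to 30.7%), against 7 of the 2173 lower-ranked promoter peaks (0.322%). In the strongest peaks of replicate 1 alone (without replicate 2) it was present in 4 of 41 (9.76%), and without replicate 1 in 6 of 43 (14%). It was ranked first for this difference among the 8192 possible 7-letter strings, so the contrast describes how it was chosen and has no test. It was also present in 94 of 19973 windows of the same length centred 266 bp upstream of each coding 5' end (0.471%), referred to below as all coding promoters. These groups were not matched for GC content. Its median was 44.6% in the 43 members, against 33.7% in the lower-ranked promoter peaks and 33.7% at all coding promoters. Whether that enters the contrast was not tested. The 6 of the 7 sites that lie upstream of the 5' end are given below on the strand that reads AGCGTGT, from RefSeq's WBcel235 genome (ce11), with that string in capitals; the other one lies inside the transcribed part of cyp-13A2.
cdc-48.1 (chrII:10563528-10563568, plus strand): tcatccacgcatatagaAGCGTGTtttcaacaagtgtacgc
tasp-1 (chrIII:10759230-10759270, minus strand): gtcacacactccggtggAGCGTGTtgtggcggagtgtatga
rpl-35 (chrIII:7854655-7854695, plus strand): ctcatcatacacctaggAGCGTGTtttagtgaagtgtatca
rpl-3 (chrIII:3867559-3867599, plus strand): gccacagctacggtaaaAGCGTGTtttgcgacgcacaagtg
iff-2 (chrII:8561438-8561478, plus strand): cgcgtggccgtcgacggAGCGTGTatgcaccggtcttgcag
rpl-15 (chrIV:654904-654944, minus strand): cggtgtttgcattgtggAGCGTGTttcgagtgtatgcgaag
In the first 3 of these, the string AGTGTA follows after exactly 8 bases, which was noticed once the sequences were in hand.

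That spacing was then counted over the 6 chromosomes on both strands. AGCGTGT alone occurred 4223 times, of which 161 (3.81%) lay inside a pooled peak and 9 (0.213%) inside a peak of the thresholded list. The pooled peaks cover 3.49% and the thresholded peaks 0.0353% of the genome. AGCGTGT followed after 8 bases by AGTGTA occurred 3 times in the genome, and all 3 were the sites shown at cdc-48.1, tasp-1 and rpl-35, which are members with ranks 2, 11 and 14. With any other gap between 0 and 15 bases the pair occurred 13 times, 3 of them inside pooled peaks. With a gap of 4 bases it occurred 2 times, 1 of them at rpl-15, as the sequence above shows. The pair was formed from sequences of the same peaks, so the count is a description of these 3 promoters.

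Genes beside the sites that hold AGCGTGT are of several kinds. cdc-48.1 encodes an AAA-type ATPase that extracts ubiquitin-tagged proteins, and its signal was 86.2 in replicate 1 and 73.5 in replicate 2. rpl-3, rpl-35 and rpl-15 encode proteins of the large ribosomal subunit. Their signals in replicates 1 and 2 were 49.8 and 74.7 at rpl-3, 46.2 and 42.1 at rpl-35, and 21.3 and 42.1 at rpl-15. iff-2 encodes the translation factor eIF5A, with 25.9 and 41.8. tasp-1 is named for the threonine aspartase family of proteases, with 46.1 and 50.6. cyp-13A2, a cytochrome P450 gene, differed from the others, with 45 in replicate 1 and 14 in replicate 2. Among the members outside the thresholded list 4 of 646 (0.619%) held the string, and among the thresholded peaks away from coding promoters 0 of 58 did (exact upper bound 6.16%).

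Not every strong member has this string, and the 3 strongest intergenic members without it and without soft-masked (repeat or low-complexity) letters near the summit read as follows, 101 bp centred on the summit on the strand of the gene, with no capitals.
nspc-17 (chrX:14525832-14525932, minus strand): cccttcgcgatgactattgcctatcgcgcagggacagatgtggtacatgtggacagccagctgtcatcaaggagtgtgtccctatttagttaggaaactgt
his-37 (chrV:9546942-9547042, plus strand): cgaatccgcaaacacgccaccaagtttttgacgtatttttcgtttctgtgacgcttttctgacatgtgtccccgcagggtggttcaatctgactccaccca
atx-2 (chrIII:10461291-10461391, plus strand): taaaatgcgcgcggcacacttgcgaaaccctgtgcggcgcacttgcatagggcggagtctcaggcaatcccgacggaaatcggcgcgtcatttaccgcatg
nspc-17 belongs to a family of similar nematode genes on the same chromosome, and its peak lay 701 bp upstream, and replicates 1 and 2 gave signals of 64.6 and 65.3, the closest pair of values among the 5 strongest members. his-37 encodes histone H4, and atx-2 the RNA-binding protein ataxin-2. The his-37 sequence holds AACACGC, at place 2 in the same ranking of strings, which overlaps ACACGCT, the reverse complement of AGCGTGT. The atx-2 sequence holds GCGGAGT, at place 4, and nspc-17 holds neither. In the first tier AACACGC was present in 7 of 43 members and GCGGAGT in 6 of 43. The GC content of the nspc-17, his-37 and atx-2 sequences over these 101 bp was 50.5%, 49.5% and 59.4%, against a median of 33.7% for windows at all coding promoters.

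Peak signal and promoter location went together across the ranked list. Signal is the value the authors' peak caller gave to each peak, in its own unit, and the first tier of members is made of those in the authors' thresholded list, which holds the 101 strongest pooled peaks. Coding promoters held 43 of these 101 peaks (42.6%, interval 32.8 to 52.8%), 152 of the 399 from there to rank 500 (38.1%), 166 of the next 500 (33.2%) and 328 of the next 1000 (32.8%). Below rank 2000 the share was 27.4%, or 2173 of 7931 (interval 26.4 to 28.4%), and the promoter windows themselves cover 21.5% of the genome. The rule set both the list and the window, so these shares describe the choice. Signals of the members ran from 31.6 to 157 with a median of 36.4. At the false discovery rate that the authors' list gives each peak, 16 members were at or below 0.05, all of them in the first tier, where the median was 0.096 and the highest 0.131. Beyond the first tier the lowest rate was 0.108, and over all members the median was 0.466.

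**Figure D1:**
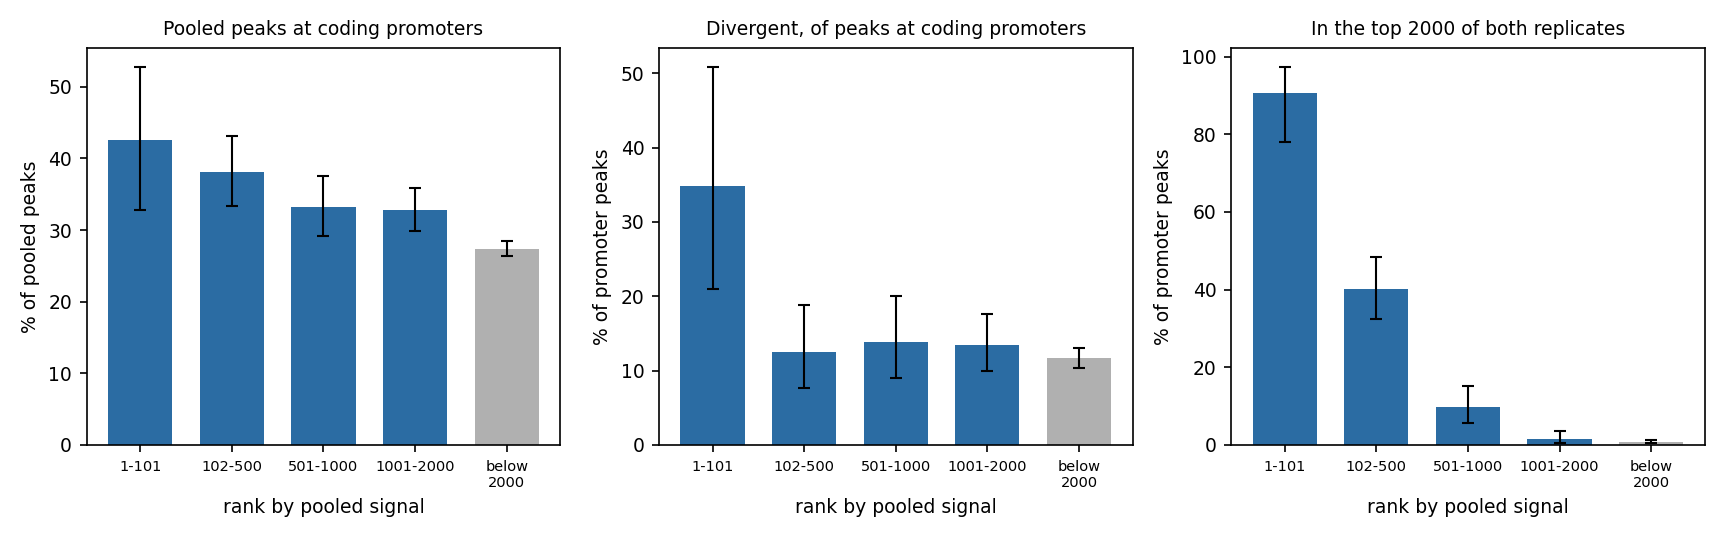
Shares by rank tier, with exact 95% intervals as bars; blue columns are tiers of the 2000 strongest pooled peaks and grey columns the peaks below them. The share at coding promoters (left) was 42.6% in the first tier and 27.4% below rank 2000. The divergent share of the promoter peaks (middle) was 34.9% and 11.7%. The share of promoter peaks in the top 2000 of both replicates (right) was 90.7% and 0.736%. That last contrast follows in part from tiers cut on the pooled signal.

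The limits of the rule passed through a continuum of values. him-17, a gene for a chromatin protein of the germ line, was the last member by rank, at 1998 with a signal of 31.6, and ceh-90, a homeobox gene, had the next promoter peak below the limit at rank 2005, also with 31.6. F09B9.5 had the summit farthest upstream inside the window, at 999 bp, and egl-26 the nearest one outside it, at 1002 bp. Downstream, F09G8.5 lay at 200 bp and ZK484.6 just outside at 201 bp. Of the 19973 protein-coding genes, 787 had a member summit in their window (3.94%), 768 of them with 1 summit and 19 with 2. Among the genes with 2 summits, those with the strongest peaks were ftt-2, which encodes a 14-3-3 protein, shk-1, a Shaker-type potassium channel gene, H41C03.3, M03F4.4 and mnk-1, a kinase gene. In 13 pairs of members the pooled peaks overlapped, among them the peaks at ftt-2 with ranks 3 and 823, which share their replicate peaks, so the number of separate sites is somewhat lower than 689.

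Divergent promoters, where the summit lies in the window of a gene on each strand, made up 101 of the 689 members (14.7%, interval 12.1 to 17.5%), against 254 of the 2173 lower-ranked promoter peaks (11.7%). First-tier members were divergent in 15 of 43 cases (34.9%, interval 21 to 50.9%), and members of the 3 tiers after it in 12.5%, 13.9% and 13.4% of cases. The share in the first tier was lower in the strongest peaks of replicate 1 alone (without replicate 2), at 9 of 41 (22%, interval 10.6 to 37.6%), an interval that reaches the shares of the other tiers, and it was 13 of 43 (30.2%) without replicate 1. The members beyond the first tier lay near the lower-ranked peaks. In all 101 cases the genes were arranged head to head, and in 88 the summit lay between the 5' ends, including 15 of 15 in the first tier. The windows reach 1000 bp upstream but only 200 bp downstream, so the rule itself largely sets both of these counts. The 5' ends were a median of 462 bp apart in the first tier and 614 bp in the other divergent members, with a range over all of them of 20 to 1518 bp.

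The 5 strongest divergent sites lie between genes of varied function. At rank 11 the summit lay 58 bp upstream of tasp-1 and 727 bp upstream of K01G5.10. At rank 12 it lay 44 bp upstream of idhg-1, a subunit gene of an isocitrate dehydrogenase, and 623 bp upstream of mlcd-1, a malonyl-CoA decarboxylase gene, with signals of 40.3 in replicate 1 and 48.1 in replicate 2. At rank 15 it lay between the core histone genes his-68 (129 bp) and his-67 (240 bp), with alg-5, an Argonaute gene, at 799 bp, and the signals were 36.3 and 56. At rank 19 the pair was atx-2 (48 bp) and ecps-1 (790 bp), with 38.9 and 45.9. At rank 20 it was F44E5.5 (152 bp) and F44E5.4 (199 bp), both HSP70-family chaperone genes, with 41.9 and 36.6. Histone genes and the F44E5 pair have near-identical copies, and how the authors' alignment shared reads between copies is not given in the sources used here. At tasp-1, idhg-1 and atx-2 the summit sat 58 bp or less from 1 of the 5' ends and far from the other, while at the histone and HSP70 pairs it sat nearer the middle.

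At the ribosomal protein gene rps-12, whose head-to-head partner ska-3 encodes a spindle and kinetochore-associated protein, the summit fell almost midway, 142 bp from rps-12 and 151 bp from ska-3. Its signals were 47 in replicate 1 and 36.5 in replicate 2. At ears-2, a glutamyl-tRNA synthetase gene, and uncp-18 the 5' ends are only 92 bp apart, the closest pair of the first tier, and the summit lay 12 bp from ears-2 and 80 bp from uncp-18, with signals of 23.3 and 30.9. The stretch at ears-2 is short enough to be shown whole, from one 5' end to the other on the plus strand of ce11, with the summit base in capitals.
ears-2/uncp-18 (chrIV:390468-390560, plus strand): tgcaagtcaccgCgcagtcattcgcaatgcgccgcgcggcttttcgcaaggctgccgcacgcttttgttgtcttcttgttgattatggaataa
Its GC content is 52.7%.

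Summits of the members concentrated a short way upstream of the 5' end. Distances were taken to the nearest coding 5' end whose window holds the summit. The median was 266 bp upstream, against 287 bp upstream for the lower-ranked promoter peaks. For first-tier members it was 180 bp, with 129 bp for divergent and 296 bp for single promoters. For the members beyond the first tier it was 270 bp, with 158 bp for divergent and 298 bp for single promoters. The medians of single promoters were thus almost the same. The fullest 100-bp stretch lay between 200 and 100 bp upstream, with 113 of 689 summits (16.4%), against 263 of 2173 lower-ranked summits (12.1%). Downstream of the 5' end the order was the other way, with 38 members (5.52%) between 100 and 200 bp, against 195 lower-ranked peaks (8.97%). On the downstream side were 5 summits of the first tier, at cpt-6 (41 bp), M03F4.4 (139 bp), ZK938.3 (93 bp), cyp-13A2 (154 bp) and C41G7.7 (32 bp), in order of signal. A summit near a 5' end is favoured by the rule only through the window, which treats its bases alike, but genes with close neighbours shorten the distances because the nearest 5' end is taken.

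**Figure D2:**
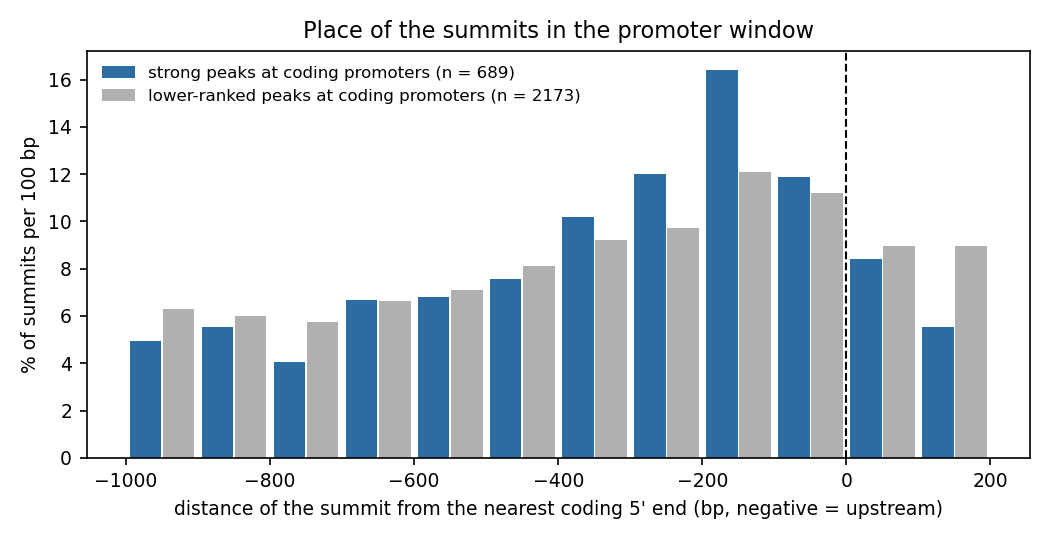
Share of summits in each 100-bp stretch of the promoter window, for the 689 strong peaks (blue, left of each pair) and the 2173 lower-ranked peaks (grey) at coding promoters; the dashed line is the 5' end. The strong peaks reach 16.4% between 200 and 100 bp upstream, where the lower-ranked peaks have 12.1%.

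By annotation, 448 of the 689 summits (65%) were intergenic, against 1320 of the 2173 lower-ranked promoter peaks (60.7%) and 491 of the 1311 other strong peaks (37.5%), where introns held 468 (35.7%). The window lies mostly upstream of genes, so the rule favours intergenic summits. In all, 59 member summits (8.56%) lay in coding exons. Coding 5' ends counted here only where the window of the gene held the summit. A noncoding gene's 5' end was nearer than any of these at 99 members (14.4%), against 218 of 2173 lower-ranked promoter peaks (10%). Among first-tier members this held for 9 of 43 (20.9%, interval 10 to 36%). ftt-2 is such a case: the summit lies 505 bp from the 5' end of ftt-2 and 65 bp from that of the noncoding RNA gene F52D10.7, and signals of 60.6 and 69.3 were measured in replicates 1 and 2. At shk-1 the noncoding gene ZK1321.5 is nearer, at 164 bp against 444 bp, with 36.5 and 54. At hsp-1, the constitutive HSP70 chaperone gene, F26D10.23 is at 168 bp and hsp-1 at 378 bp, with 45.9 and 62.4. For these peaks the assignment to a coding gene is the rule's, and the peaks do not show which gene, if any, they bear on. At srlf-17, the member of the 15 strongest with the summit farthest upstream (968 bp), the summit fell in a noncoding exon, with 37.4 and 46.1.

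Presence of a replicate peak separated the tiers less than its strength did. A peak of both replicates overlapped 614 of the 689 members (89.1%, interval 86.5 to 91.3%), the same share as among the other strong peaks (1168 of 1311, 89.1%), and above that of the lower-ranked promoter peaks (1241 of 2173, 57.1%). By tier it was 100%, 94.7%, 91% and 84.1%. The replicate lists were long, with 25795 and 29222 peaks that cover 9.28% and 10.1% of the genome, and the pooled list was called from the same reads, so overlap alone asks little. When only the 2000 strongest peaks of each replicate were used, 121 of 689 members (17.6%, interval 14.8 to 20.6%) had a peak in both, against 207 of 1311 other strong peaks (15.8%). By tier that share was 39 of 43 (90.7%), then 40.1%, 9.64% and 1.52%. The tiers were cut on the pooled signal, which holds the reads of both replicates, so this order follows in part from the choice. The first tier is also labelled as thresholded by IDR, a measure of reproducibility. Divergent members had a top-2000 peak in both replicates in 30 of 101 cases (29.7%, interval 21 to 39.6%), against 91 of 588 single ones (15.5%, interval 12.6 to 18.7%). The divergent share of the first tier enters that difference.

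**Figure D3:**
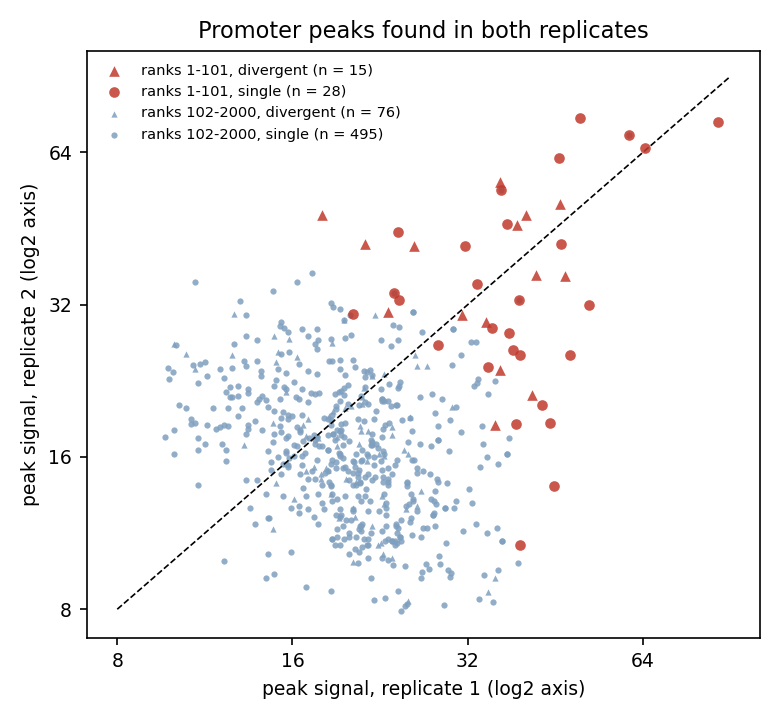
Signal of the strongest overlapping peak in replicate 1 (horizontal, log2 axis) and replicate 2 (vertical, log2 axis) for the 614 members found in both; triangles are divergent and circles single promoters, red marks the first tier and the dashed line equal signals. Members outside the first tier spread across the line, with an SD of 0.71 in the log2 ratio. The peak at ftt-2 stands for 2 members with the same values, 1 of them outside the first tier.

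Individual members differed between the replicates over a wide range in each tier. The log2 ratio of replicate 1 over replicate 2 had a median of 0.26 and an SD of 0.71 over the 614 members, and a median of 0.10 and an SD of 0.72 over the 43 of the first tier. The depth of the libraries is unknown and the signals are not stated to be scaled to each other, so the median ratio carries no meaning of its own. The members of the first tier that leaned furthest to replicate 2 were icd-1, which encodes a subunit of the nascent polypeptide-associated complex and starts head to head with the ESCRT-III gene vps-32.1 (18 in replicate 1 and 48.2 in replicate 2, ratio -1.42), rpl-15 (-0.98) and ufd-3 (24.3 and 44.6, -0.88), the gene of a CDC-48 cofactor. Those that leaned furthest to replicate 1 were C41G7.7 (39.4 and 10.7, ratio 1.88), cyp-13A2 (1.69) and daf-19 (44.3 and 18.7, 1.24), which encodes the RFX transcription factor of ciliated neurons. C41G7.7 had rank 46 in replicate 1 and rank 14681 in replicate 2, and it is in the authors' thresholded list.

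Members with a peak in only 1 replicate numbered 53 for replicate 1 (7.69%) and 22 for replicate 2 (3.19%), and none lacked a peak in both. Their signal in the replicate that had them was not low: a median of 27.7 in replicate 1, against 20.6 there for the members found in both, and of 23.4 in replicate 2, against 17.1. The strongest was W02G9.3, with 45.4 in replicate 1, at rank 22, and no peak in replicate 2. scpl-1, a small C-terminal-domain phosphatase gene, had 41.4 in replicate 2, at rank 25, and no peak in replicate 1. F27E5.7 had 37.3 in replicate 1 only. All 3 ranked between 151 and 201 in the pooled list. Since members were chosen on the pooled signal, a peak seen in 1 replicate had to be strong there to qualify.

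The letters around the summits of the first tier differed from those of the other members. The median GC content within 50 bp of the summit was 35.6% for all members, against 33.7% for the other strong peaks, 33.7% for lower-ranked promoter peaks and 33.7% 266 bp upstream of all coding 5' ends. First-tier members had 44.6% (quartiles 38.1 and 52%), against 33.2% for the 58 thresholded peaks elsewhere and 34.7% for the members beyond that tier. First-tier divergent members had 50.5%, and first-tier single members 42.1%. Of the 43, 29 (67.4%, interval 51.5 to 80.9%) were at or above 40%, a level that 23.6% of all coding promoters reach. The highest was ears-2/uncp-18 with 63.4%, and the lowest were rpac-19, an RNA polymerase subunit gene, and C41G7.7 with 28.7% each. Windows with soft-masked letters had a lower GC content, and 29 of the 43 first-tier windows (67.4%) held at least 1 of them, against 83% of the windows of lower-ranked promoter peaks. Among windows with none, the median GC content was 52% in 14 first-tier members, against 43.6% in 370 lower-ranked promoter peaks and 41.6% at 3427 coding promoters. Among windows with some, it was 41.6% in 29 first-tier members, against 31.7% in 1803 lower-ranked promoter peaks and 32.7% at 16546 coding promoters.

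**Figure D4:**
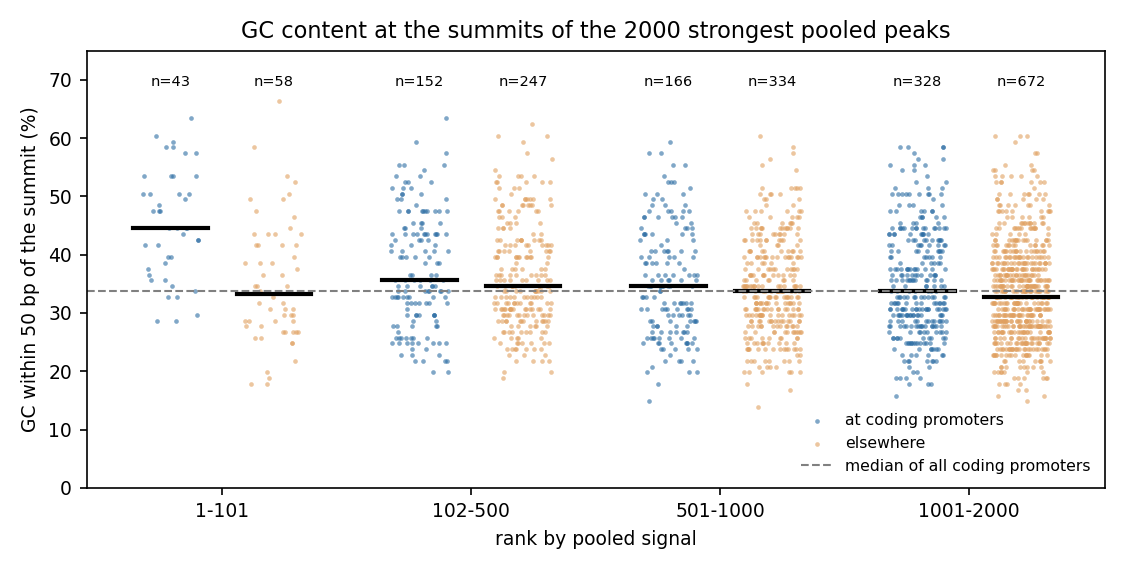
GC content within 50 bp of the summit for each of the 2000 strongest pooled peaks, by rank tier, at coding promoters (blue, left) and elsewhere (orange, right); black bars are medians and the dashed line is the median of all coding promoters (33.7%). In the first tier the 43 promoter peaks have a median of 44.6% and the 58 others 33.2%, and in the later tiers the medians of both kinds lie close together.

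Among 12 short motifs looked for in the same windows, in both orientations, AGGTCA, the textbook half-site of the receptor family, was found at 7 of 689 members (1.02%, interval 0.409 to 2.08%), against 56 of 2173 lower-ranked promoter peaks (2.58%) and 2.66% of all coding promoters. GGGTCA, a variant of it, was also found at 7 members (1.02%), against 2.02% of the lower-ranked peaks and 1.48% of all coding promoters. In the first tier both were found at 0 of 43 (exact upper bound 8.22%). The absence of these letters from a window says nothing about binding. GAGAGA was present at 81 members (11.8%, interval 9.45 to 14.4%), against 10.2% of the other strong peaks, 8.70% of the lower-ranked promoter peaks and 6.24% of all coding promoters. GGGCGG, whose letters are all G or C, was present at 12 of 101 divergent members (11.9%, interval 6.29 to 19.8%) and 17 of 588 single ones (2.89%). It was present at 2.16% of lower-ranked promoter peaks and 2.17% of all coding promoters. Those 2 groups were not split into divergent and single, so whether the higher share belongs to divergent promoters in general was not tested. GAGACG was found at 5.81% of members and 4.69% of lower-ranked peaks, and TGACGT at 3.19% and 3.04%. The A- and T-rich TATAAA and TAATTA stood at 12.9% and 5.81% of members, against 15.3% and 7.09% of lower-ranked peaks. TTATCA (8.85% and 9.34%), CACGTG (1.02% and 1.43%), CCAAT (18.1% and 19.4%) and a run of 7 T (25.3% and 27.4%) differed little between the same groups.

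Genes beside the members were read in 23 lists by function, each set beside the 3.94% of all protein-coding genes with a member summit. The lists were chosen with earlier results of these data known, so whether an interval holds 3.94% is a description and no test. Cytosolic ribosomal protein genes had the most in the first tier: 17 of 81 had a member summit (21%, interval 12.7 to 31.5%), at 16 sites, and 7 of the 17 were in the first tier. Beyond rpl-3, rpl-35 and rps-12 these were rpl-15, rps-28, rpl-20 and rps-19. A further 23 of the 81 ribosomal protein genes had only a lower-ranked promoter peak, against 2313 of all 19973 protein-coding genes. The sites were not alike in the replicates, with 41.2 in replicate 1 and 21.2 in replicate 2 at rpl-20, and 31.3 and 30.5 at rps-19.

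Other genes of protein synthesis and quality control followed. Chaperone genes had a member summit at 10 of 73 (13.7%, interval 6.77 to 23.8%), with hsp-1, F44E5.4 and F44E5.5 as the strongest. hsp-110 shares its summit with rpn-3, a proteasome lid subunit gene, with signals of 34.4 in replicate 1 and 29.6 in replicate 2. Proteasome and ubiquitin genes had 8 of 65 (12.3%, interval 5.47 to 22.8%), with cdc-48.1, ufd-3 and rpn-3 as the strongest. Translation factor genes had 5 of 41 (12.2%, interval 4.08 to 26.2%). After iff-2 these were eif-3.C (29.7 and 16.4 in replicates 1 and 2) and ifet-1, which encodes an eIF4E-binding protein (20.3 and 12.7). Aminoacyl-tRNA synthetase genes had 2 of 32, ears-2 and cars-1, and histone genes 4 of 82 at 3 sites, of which the third, his-72, had a weak peak with 16.9 and 13.4. The intervals of these last lists, 0.766 to 20.8% and 1.34 to 12%, hold 3.94%.

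Cell cycle and DNA replication genes had a similar share but at a different level of signal. A member summit lay at 11 of 52 (21.2%, interval 11.1 to 34.7%), at 10 sites, with none in the first 500 peaks, 8 genes between ranks 500 and 1000 and 3 below. cyb-1, a cyclin B gene, and orc-5, an origin recognition complex gene, start head to head and share a summit 263 bp from cyb-1 and 365 bp from orc-5, with 14.9 in replicate 1 and 27.8 in replicate 2. cdk-12, a kinase gene of transcription elongation, had 21.3 and 13.4. The values of the other genes in that range were of the same order: cdc-6 had 17 and 19, cdk-9 20.8 and 17, pcn-1 (PCNA) 20 and 17.2, mcm-10 13.8 and 18.8, and plk-2 16.6 and 21.8. For comparison, of the 787 coding genes with a member summit, 62 had one in the first tier and 170 from there to rank 500. The list differs from all genes in its share and in its place in the ranking, though 11 genes are few and both depend on which genes it holds. It includes cdk-12 but leaves out wee-1.3, a cell-cycle kinase gene with a first-tier member summit at rank 68.

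**Figure D5:**
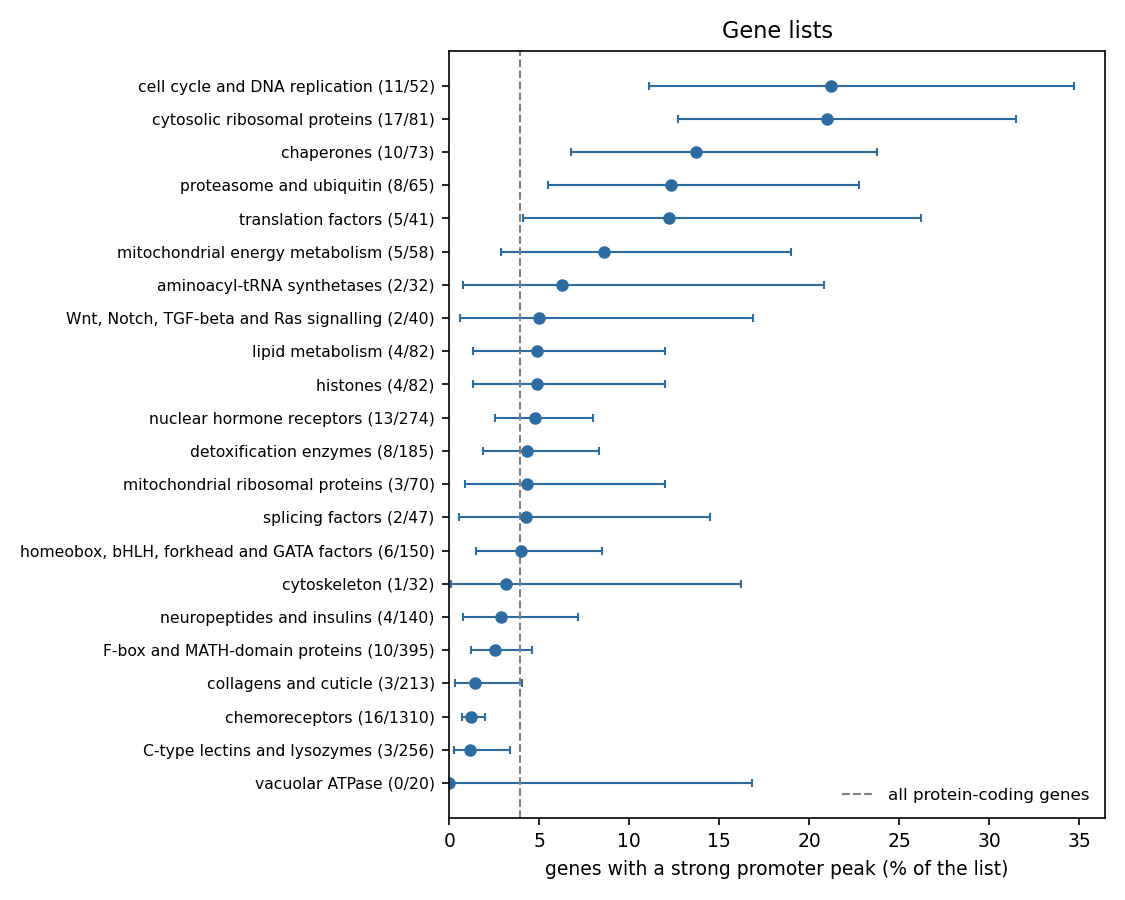
Share of the genes of each list with a strong promoter peak, with exact 95% intervals; the counts stand beside the names, the dashed line is the 3.94% of all protein-coding genes, and the list of 2 14-3-3 genes is left out. Cell cycle and ribosomal protein genes are at 21.2% and 21%, and chemoreceptor genes at 1.22%.

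Genes of energy metabolism and most regulatory genes lay nearer to the share of all genes. Mitochondrial energy genes had 5 of 58 (8.62%), with idhg-1, idh-2 (21.9 in replicate 1 and 23.1 in replicate 2) and cox-5A (12.7 and 26.7) as the strongest. Mitochondrial ribosomal protein genes had 3 of 70, all below rank 500, with mrps-12 lacking a peak in replicate 2. Lipid metabolism genes had 4 of 82 (4.88%), led by cpt-6, a carnitine palmitoyltransferase gene, with 37.6 and 28.1, then lbp-5 and the vitellogenin gene vit-2. Splicing factor genes had 2 of 47 (rsp-6 and snr-2), cytoskeleton genes 1 of 32 (arx-2), vacuolar ATPase genes 0 of 20 (exact upper bound 16.8%), and 14-3-3 genes 1 of 2 (ftt-2).

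Transcription factor genes lay near the share of all genes. Nuclear hormone receptor genes, the family of NHR-11 itself, had a member summit at 13 of 274 (4.74%, interval 2.55 to 7.98%), with none in the first tier. nhr-1 was the strongest at rank 116, with 26.7 in replicate 1 and 28.3 in replicate 2, followed by nhr-32 (30.6 and 20.1) and nhr-205 (25.2 and 14.2). Homeobox, bHLH, forkhead and GATA genes had 6 of 150 (4%), led by ceh-23 (33.2 and 22.4), hlh-6 (31.1 and 25.4) and hlh-11 (19.3 and 23.9). Genes of Wnt, Notch, TGF-beta and Ras signalling had 2 of 40, the Frizzled gene cfz-2 and the Wnt gene cwn-1. Detoxification genes had 8 of 185 (4.32%), led by cyp-13A2, ugt-16 (13 and 32.6) and cyp-13A3 (16.6 and 28.6).

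The large families of genes used in single tissues or in response to the environment had few members. Chemoreceptor genes had 16 of 1310 (1.22%, interval 0.7 to 1.98%), and the strongest, sre-1, shares a divergent site with B0495.9 and lies 882 bp from the summit; srh-135 and srv-7 came next. Collagen and cuticle genes had 3 of 213 (1.41%, interval 0.291 to 4.06%): dpy-10, col-38 and col-164. C-type lectin and lysozyme genes had 3 of 256 (1.17%, interval 0.242 to 3.39%): clec-196, clec-189 and clec-264. F-box and MATH-domain genes had 10 of 395 (2.53%, interval 1.22 to 4.61%), led by fbxb-58, bath-24 and fbxb-99. Neuropeptide and insulin genes had 4 of 140 (2.86%, interval 0.784 to 7.15%), led by nlp-63, flp-4 and ins-39. The intervals of the collagen, F-box and neuropeptide lists hold 3.94%. The upper bounds for chemoreceptors and for lectins and lysozymes lie below it. No site was shared by genes of the same list in these 2 lists.

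By chromosome, II held 159 of the 689 members (23.1%), against 240 of 1311 other strong peaks (18.3%) and 17.3% of coding genes. V held 122 (17.7%), close to the other strong peaks (17.2%) and below its 25% of coding genes. X held 114 members (16.5%), against 305 of the other strong peaks (23.3%) and 13.7% of coding genes. Of the 43 first-tier members 13 were on II, 9 on III and 3 on X.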

How the data were processed

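The signal, a score from the authors' peak caller, and the −log10 of the q-value (false discovery rate) were used as deposited in the narrowPeak lists on ce11 (WBcel235): 1 list per replicate, 1 pooled and 1 thresholded. Per the deposited file listing, each was derived from alignments and a control, which was not analysed here; aligner, caller, settings and library depth are not given in the sources used here. Because the depth is unknown, no precision beyond counting error can be given. Lists on ce10 were not used.

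The −log10 q-values of the deposited lists were turned back into rates. Gene 5' ends came from the Ensembl annotation (46890 genes, 19973 of them protein-coding, on 6 chromosomes), and windows of 50 bp on each side of the summit from RefSeq's WBcel235 genome. A replicate peak was matched by an overlap of at least 1 bp, and the strongest was taken. Shares carry exact Clopper-Pearson 95% intervals. The alternatives were other numbers of peaks, windows, 5' ends, rankings and overlaps, windows without soft-masked letters, and each replicate alone. Gene assignment, overlap and motif counting were tested on simulated data.

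The members and lists were chosen with earlier results of these data known. Named by rule were the 15 strongest members with all genes in reach, the 5 strongest divergent and single members, up to 3 genes of each of 23 lists, 3 first-tier members at each end of the replicate ratio, 3 members without a peak in a replicate, members at the limits, and up to 5 genes with several summits. Named after their values were seen were the holders of AGCGTGT, rpac-19, ZK938.3, uncp-18, his-72, hsp-110, B0495.9 and further ribosomal, cell cycle and mitochondrial genes. Python 3.11.15, numpy 2.4.6, pandas 2.3.3, scipy 1.17.1 and matplotlib 3.10.9 were used.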

Additional observations from a re-analysis of the deposited data

How the results depend on the processing

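Over 14 settings, 124 values were recomputed, of which 97 stayed within their interval or spread and 27 moved. For median distance and GC content, the spread was the SD of the values from each replicate alone. Those values were themselves among the ones judged, so replicates that differ more make more values count as unchanged. First-tier median GC contents of 39.6 and 47.5% with each replicate alone both counted as unchanged from 44.6%. The count of 97 is therefore no measure of robustness. A change of sign was possible only for the median distance, which stayed upstream, where most of the window lies. The share of strong peaks at coding promoters was 24.8% with 500 bp upstream, 30.4% with no bases downstream, 40% with the 5' ends of every coding transcript and 42.6% in the thresholded list alone. In that list the divergent share was 34.9%, the share with a peak in both replicates 100%, that with a top-ranked peak in both 90.7%, the median distance -180 bp and the median GC content 44.6%. With 1000 and 3000 strongest peaks, the share in both replicates was 93.6% and 85.4%, and the share top-ranked in both 32.1% and 12.8%. Requiring 50% of both peaks gave 83.5% in both replicates, and summits within 100 bp gave 70.5%, with 13.9% top-ranked in both. The median distance was -172 bp with 500 bp upstream and -328 bp with no bases downstream. Without soft-masked summits, 21.7% were top-ranked in both, the median GC content was 44.6% (52% in the first tier), GAGAGA stood at 15% and the SD of the log2 ratio was 0.79. With 100 bp on each side of the summit GAGAGA stood at 20.8%. With each replicate alone, the share at promoters was 31.6 to 32.4%, the divergent share 13.3 to 14.4%, the median distance -274 to -248 bp, the median GC content 33.7 to 35.6% and GAGAGA 9.10 to 11.7%. In the first tier of each replicate alone, the share at promoters was 40.6 to 42.6%, the divergent share 22 to 30.2%, the median GC content 39.6 to 47.5% and the share with AGCGTGT 9.76 to 14%. The causes of these shifts were not tested beyond what each setting changes by construction. No paired analysis was possible because the samples form 1 group.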
